A study of Homo sapiens with 6 samples.

Results

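The 32 guides described here target 7 genes of ubiquitin conjugation named Ube2 (Ube2a, Ube2b, Ube2d3, Ube2n, Ube2v1, Ube2v2 and Ube2w) and the ubiquitin ligase gene Shprh, with 4 guides per gene. They were taken by name from a dual-guide knockout library as every guide whose symbol begins with Ube2, Ube2t left out, or is Shprh. They are 32 of the library's 1826 gene-targeting guides and 8 of its 459 targeted genes. The library also holds 61 non-targeting guides. In each construct, guides 1 and 2 of a gene stood at position 1 and guides 3 and 4 at position 2, so that each construct can disrupt a pair of genes. Of 863546 constructs with reads, 29019 carried at least 1 of these guides.

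The screen asked which losses of DNA repair genes, alone and in pairs, matter for growth and for survival of ionizing radiation. It used human eHAP cells, which go back to HAP1, a near-haploid leukemia line, here as a single clone (iCas9-cl#6) that is p53 null and makes Cas9 under doxycycline; all groups carried the library after puromycin selection, with blasticidin in the medium to hold the Cas9 locus. The 3 groups of 2 libraries were the cells at day 0, cells grown without irradiation until day 14 (12 population doublings), and cells kept until day 15 (10 doublings) that were given 0.6 Gy of X-rays on the day after each split, a dose for which the submitters give differing lethal-dose figures. The cultures were induced with doxycycline for 7 days, and the count of a construct in genomic DNA stands for the abundance of the cells carrying it. Irradiated and day 14 cells differed in day and doublings as well as in dose, and these cannot be told apart here. Against day 0, the irradiated cells also differed in time in culture. Below, irradiation names the group and not a cause.

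Ubiquitin reaches its substrates through an activating enzyme (E1), a conjugating enzyme (E2) and a ligase (E3). At stalled replication forks, the RAD6 enzymes, encoded by UBE2A and UBE2B, act with the ligase RAD18 to attach a single ubiquitin to the clamp PCNA, which brings in translesion polymerases. UBE2N (UBC13), paired with the catalytically inactive variant UBE2V2 (MMS2), extends that mark to a chain with the ligases SHPRH or HLTF. The chain directs the fork towards template switching. UBE2N also works with RNF8 and RNF168 on chromatin beside double-strand breaks. With UBE2V1 (UEV1A), another catalytically inactive variant, it works in inflammatory signalling. UBE2D3 serves many ligases, and UBE2W places ubiquitin on the amino end of substrates.

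By symbol, these genes lie on 7 human chromosomes in the RefSeq annotation of GRCh38.p14: SHPRH at chr6:145857838-145964358, UBE2A at chrX:119574563-119584423, UBE2B at chr5:134371569-134392108, UBE2D3 at chr4:102794383-102868895, UBE2N at chr12:93405684-93441947, UBE2V1 at chr20:50081124-50115957, and UBE2V2 and UBE2W on chromosome 8. The tables write the symbols in mouse style although the cells are human. Guide sequences and their cut sites within these genes were not used here.

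Libraries held 61185707 to 86587125 reads, and 3.46% to 3.59% of each library's reads carried a guide of this group. The libraries were not equally complete. Constructs with these guides had no reads in 52.5% of cases in day 14 replicate 1 and 47.9% in irradiated replicate 2, against 2.58% to 7.54% in the other 4 libraries. The same 2 libraries lacked reads for 54.1% and 49.4% of all constructs. In day 14 replicate 1 the largest construct held a median of 2.14% and at most 7.34% of a guide's reads, against a median of 0.69% in day 0 replicate 1. Nothing in the labels says that replicates were separate cultures, so the p-values measure the spread between these libraries only.

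None of these guides or genes passed edgeR's quasi-likelihood test in any of the 3 comparisons (adjusted p of at most 0.05 over the whole library), and neither did any other guide, gene or gene pair. Ube2a_sg1, with 121 to 191 reads per library, was too rare to be tested, which left 31 guides. The share of the 1849 guides tested that were called was 0% in each comparison, and so was that of the 520 genes and non-targeting guides. At an unadjusted p under 0.05 there were 79, 57 and 83 guides in the whole library for the day 14 and then the irradiated cells against day 0, and for the irradiated against the day 14 cells, and among the 31 there were 4, 3 and 1. DESeq2 called 18 (0.973%), 27 (1.46%) and 20 (1.08%) of all guides in the same order, of which 1, 0 and 0 belonged to this group. The median log2 difference of the 31 guides was -0.01, -0.02 and -0.00, beside -0.00 in each comparison for all gene-targeting guides. In simulated counts with 200 of 1849 guides changed, the day 14 comparison found 90% of those changed 1.5-fold and 100% of those changed 2-fold. The simulation drew all guides and libraries at a common spread (biological coefficient of variation 0.10). These shares therefore need not hold for guides with a wider spread, such as Ube2v2_sg3 (SE 0.24 at day 14 against day 0). The median 95% interval of a guide reached 0.20 on either side on the log2 scale.

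The clearest departure among the 31 guides was that of Ube2b_sg1, 1 of 4 guides to the RAD6 enzyme gene UBE2B. In CPM over the reads of its position it stood at 1435 and 1385 in the day 0 libraries, at 1170 and 1014 at day 14, and at 1340 and 1423 after irradiation. Both day 14 libraries were thus below every day 0 and irradiated library, while the day 0 and irradiated values overlapped. The log2 difference of day 14 against day 0 was -0.37 (SE 0.08, 95% interval -0.58 to -0.16; edgeR unadjusted p = 0.0054, adjusted p = 0.646), the lowest of the 31 guides, with a value lower in 4 of 4 comparisons of a day 14 with a day 0 library. Irradiated against day 14 gave 0.34 (0.13 to 0.55; edgeR unadjusted p = 0.00777, adjusted p = 0.719), the highest of the 31, and irradiated against day 0 gave -0.03 (-0.24 to 0.18). The 61 non-targeting guides spanned -0.41 to 0.41 at day 14 against day 0, a range that holds the value of Ube2b_sg1. In irradiated against day 14 cells they spanned -0.21 to 0.17, which does not hold its value there. DESeq2 did call the day 14 difference of Ube2b_sg1 (-0.36, adjusted p = 0.0372). Without day 0 replicate 2, which leaves 1 day 0 library, edgeR gave -0.39. Over 15 alternative settings the day 14 difference ranged from -0.48 to -0.27 and its adjusted p from 0.00712 to 0.936.

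The lower count of Ube2b_sg1 was spread over its partners. Of its 766 constructs with a mean of at least 50 reads at day 0, 603 (78.7%) had a lower share of reads in day 14 replicate 2 than at day 0, with a median log2 difference of -0.55. In irradiated replicate 1, the other well-covered later library, 443 of the 766 (57.8%) were lower, with a median of -0.17. Over 1760 gene-targeting guides, the median share of constructs that were lower was 55.0% and 56.8% in these libraries, and Ube2b_sg1 ranked 8 and 742 by that share. Constructs of 1 guide are not independent samples, so these shares are descriptions.

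The other guides to UBE2B lay nearer to 0. At day 14 against day 0, Ube2b_sg2 had a log2 difference of 0.06 (-0.14 to 0.27), Ube2b_sg3 of -0.08 (-0.27 to 0.11) and Ube2b_sg4 of -0.02 (-0.20 to 0.17). The interval of Ube2b_sg1 overlaps those of Ube2b_sg3 and Ube2b_sg4 in part, and the difference between guides was not tested. Summed over its 4 guides, Ube2b stood at 3129 and 2854 at day 0, 2870 and 2700 at day 14, and 2835 and 2955 after irradiation, in CPM of all guide counts, where each read counts for both of its guides. The groups overlapped, and the log2 differences were -0.10 (SE 0.06) for day 14, -0.05 (0.06) for irradiation against day 0, and 0.06 (0.06) for irradiation against day 14, with edgeR adjusted p of 0.548, 0.750 and 0.995.

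In constructs that paired Ube2b guides with non-targeting guides, the same order appeared with wider error. Per 10000 reads of constructs with non-targeting guides on both sides, the values were 2589 and 2257 at day 0, 1878 and 2117 at day 14, and 2395 and 2558 after irradiation. Both day 14 libraries were again the lowest, and the log2 difference of day 14 against day 0 was -0.28 (95% interval -0.62 to 0.06; edgeR unadjusted p = 0.104, adjusted p = 0.817). Irradiated against day 14 gave 0.31 (-0.03 to 0.65; adjusted p = 0.965). In such single-knockout tests the share of the 459 genes called was 0% in each comparison, with 18, 12 and 13 genes under an unadjusted p of 0.05. These constructs share reads with the guide sums above and are not a separate experiment.

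Ube2a, the second RAD6 enzyme gene, showed little movement in any readout. Summed over its guides it stood at 2096 and 1960 at day 0, 1896 and 1981 at day 14, and 1961 and 2004 after irradiation. The groups overlapped, and the log2 differences were -0.07 (-0.20 to 0.06) and -0.03 (-0.16 to 0.10) against day 0 and 0.03 (-0.10 to 0.16) between the later groups. Its single-knockout differences were 0.05 (-0.33 to 0.43), 0.14 (-0.24 to 0.52) and 0.09 (-0.29 to 0.47) in the same order.

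Ube2n, the catalytic enzyme of chain extension, had gene sums slightly below day 0 in both later groups, a direction that position 1 guides did not share. Its values were 1589 and 1464 at day 0, 1482 and 1428 at day 14, and 1423 and 1447 after irradiation, so that both irradiated libraries lay below both day 0 libraries and 1 of the day 14 libraries did not. The log2 differences from day 0 were -0.07 (-0.21 to 0.07) and -0.09 (-0.23 to 0.05), with edgeR adjusted p of 0.596 and 0.638. They were 0.02 and 0.02 with position 1 guides alone, -0.13 and -0.17 with position 2 guides alone, and -0.01 and -0.03 without day 0 replicate 1. Among its guides, Ube2n_sg3 was at -0.20 after irradiation (-0.38 to -0.03; unadjusted p = 0.0312, adjusted p = 0.789), whereas Ube2n_sg1 was at -0.06, Ube2n_sg2 at 0.06 and Ube2n_sg4 at -0.10.

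Ube2v1 and Ube2v2, the partners of UBE2N, had the highest gene values of the 8 against day 0, and most of their size rests on 1 day 0 library. Ube2v1 stood at 2076 and 2772 at day 0, 3082 and 2926 at day 14, and 2996 and 3072 after irradiation. Ube2v2 stood at 1963 and 2520 at day 0, 2659 and 2711 at day 14, and 2611 and 2642 after irradiation. For both genes every later library was above both day 0 libraries, and day 0 replicate 1 was far below day 0 replicate 2.

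The log2 differences of Ube2v1 were 0.31 at day 14 (SE 0.13, -0.01 to 0.63) and 0.32 after irradiation (SE 0.13, 0.01 to 0.64; unadjusted p = 0.0463), with edgeR adjusted p of 0.548 and 0.638. Those of Ube2v2 were 0.26 (SE 0.11, -0.01 to 0.53) and 0.23 (SE 0.11, -0.05 to 0.50), with the same adjusted p. Between irradiated and day 14 cells the genes were at 0.01 (-0.30 to 0.33) and -0.03 (-0.31 to 0.24). Without day 0 replicate 1, the day 14 differences became 0.12 for Ube2v1 and 0.09 for Ube2v2, and the irradiated ones 0.13 and 0.06. Without day 0 replicate 2 they became 0.53 and 0.45 at day 14, and 0.55 and 0.42 after irradiation, and all 4 were then called, in a fit that called 36.9% and 34.6% of all genes and non-targeting guides against day 0 and 0.192% between the later groups. The same fit of guides called 16.9% and 16.8% of the library against day 0 and 0.595% between the later groups, with 6, 7 and 0 of the 31. The gene fit also called Ube2b (-0.17, adjusted p = 0.0227) and Ube2w (-0.17, adjusted p = 0.0398) at day 14.

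The gap between the day 0 libraries was larger at position 2 than at position 1 for these genes. Day 0 replicate 1 against replicate 2 gave log2 differences of -0.67 for Ube2v1_sg3, -0.53 for Ube2v1_sg4, -0.76 for Ube2v2_sg3 and -0.71 for Ube2v2_sg4. The 4 guides of the same genes at position 1 lay between -0.22 (Ube2v2_sg1) and 0.03. Of the other 23 guides of the group, those at position 1 lay between -0.11 (Shprh_sg1) and 0.08 (Ube2d3_sg1). Those at position 2 all lay above 0, between 0.08 (Ube2w_sg4) and 0.34 (Ube2d3_sg4). Over the whole library, 264 of 927 guides at position 2 lay below -0.5 in this comparison, against 2 of 922 at position 1. What sets these guides apart was not tested.

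By guide, the position 2 values were again the higher ones. Ube2v2_sg4 had the highest difference of the 31 guides in both comparisons with day 0, with 712 and 1162 CPM of its position at day 0, 1381 and 1287 at day 14, and 1219 and 1333 after irradiation. Its log2 differences were 0.51 (-0.05 to 1.07) and 0.45 (-0.12 to 1.01), with edgeR adjusted p of 0.646 and 0.789. The highest non-targeting guides, over both positions, were at 0.41 and 0.45 in these comparisons. Ube2v1_sg4 was at 0.43 and 0.44, against -0.01 and -0.00 for Ube2v1_sg1 and 0.03 and 0.03 for Ube2v1_sg2. With position 1 guides alone, the gene differences were 0.00 and 0.01 for Ube2v1 and 0.16 and 0.11 for Ube2v2.

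Of the Ube2v2 guides at position 1, Ube2v2_sg2 stood at 1216 and 1306 CPM at day 0, 1407 and 1458 at day 14, and 1375 and 1336 after irradiation. Both day 14 libraries were above the rest, and the log2 difference at day 14 was 0.18 (0.04 to 0.33; edgeR unadjusted p = 0.0211, adjusted p = 0.646). As single knockouts, Ube2v1 was at 0.41 at day 14 (0.02 to 0.81; unadjusted p = 0.0421, adjusted p = 0.817) and at 0.26 after irradiation (-0.13 to 0.66), and Ube2v2 at 0.33 (-0.10 to 0.76) and -0.03 (-0.46 to 0.40). The Ube2v1 value at day 14 was 0.15 without day 14 replicate 1, one of the incomplete libraries. The irradiated libraries of Ube2v2 stood apart, at 2261 and 1358 per 10000 non-targeting reads, and its irradiated value was -0.45 without replicate 1 and 0.29 without replicate 2, the other incomplete library.

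Shprh, a ligase of PCNA chain extension, had the narrowest range of gene sums among the 8, with log2 levels that spanned 0.09. It stood at 2677 and 2534 at day 0, 2693 and 2606 at day 14, and 2560 and 2601 after irradiation. The log2 differences were 0.02 (-0.09 to 0.14), -0.01 (-0.13 to 0.10) and -0.04 (-0.15 to 0.07) for day 14 and irradiation against day 0 and for irradiation against day 14. Its 4 guides spanned -0.04 to 0.11 in the first comparison.

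The single-knockout constructs of Shprh differed from this sum in 1 library. Per 10000 non-targeting reads they stood at 2255 and 2073 at day 0, 3286 and 2172 at day 14, and 2033 and 1856 after irradiation. Day 14 replicate 1 was far above the other 5 libraries, which lay close together. The log2 difference of irradiated against day 14 cells was -0.49 (-0.88 to -0.10; edgeR unadjusted p = 0.0166, adjusted p = 0.965), and it became -0.16 without day 14 replicate 1. The day 14 difference from day 0 was 0.33 (-0.05 to 0.72), 0.01 without that library, and 0.60 without day 14 replicate 2, where it was called (adjusted p = 0.0452) in a fit that called 4.58% of genes.

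Ube2w, the enzyme of amino-terminal ubiquitin, was the only gene of the 8 whose later libraries all lay below both day 0 libraries. It stood at 1473 and 1393 at day 0, 1316 and 1305 at day 14, and 1286 and 1374 after irradiation. The log2 differences from day 0 were -0.13 (SE 0.06, -0.27 to 0.01) and -0.11 (SE 0.06, -0.25 to 0.03), with edgeR adjusted p of 0.548 and 0.638. They were the lowest gene values of the group in both comparisons. The gene ranked 34 and 43 from the bottom of the 520 genes and non-targeting guides. In that fit the 61 non-targeting guides spanned -0.44 to 0.39 and -0.32 to 0.44, ranges that hold both Ube2w values. Each of the 61 is 1 guide, whereas Ube2w is a sum over 4 guides, so the ranges are not like for like. Their standard deviations were 0.18 and 0.18, against 0.11 and 0.11 for all targeted genes. With position 1 guides alone the Ube2w differences were -0.04 and 0.01, and with position 2 guides alone -0.16 and -0.17.

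Most of this came from Ube2w_sg4, with 1362 and 1293 CPM of its position at day 0, 1171 and 1156 at day 14, and 1086 and 1168 after irradiation. All 4 later libraries were below both day 0 libraries. The log2 differences were -0.19 (-0.34 to -0.04; unadjusted p = 0.0232, adjusted p = 0.646) and -0.24 (-0.39 to -0.08; unadjusted p = 0.00989, adjusted p = 0.683, edgeR), the latter the lowest of the 31 guides after irradiation. Ube2w_sg2 was at -0.14 and -0.05, Ube2w_sg3 at -0.10 and -0.02, and Ube2w_sg1 on the other side at 0.05 and 0.07. Single knockouts of Ube2w were at -0.08 (-0.55 to 0.40) and -0.37 (-0.84 to 0.10). On the log2 scale, day 0 replicate 1 lay above replicate 2 by 0.15 for Ube2w_sg3 and 0.08 for Ube2w_sg4, both at position 2.

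Ube2d3, the enzyme shared by many ligases, also stayed close to its day 0 level. It stood at 2227 and 2054 at day 0, 2185 and 2057 at day 14, and 2084 and 2163 after irradiation, with overlapping groups. The log2 differences were -0.01 (-0.16 to 0.13), -0.01 (-0.16 to 0.14) and 0.00 (-0.14 to 0.15). Its guide Ube2d3_sg4 was the lowest of the 31 in irradiated against day 14 cells, at -0.12, but its interval ran from -0.63 to 0.40 on 295 to 433 CPM.

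Gene pairs were read as the departure of a pair's count from the sum of both genes' effects in that library, so that a difference between groups is the interaction. None of the 28 pairs among the 8 genes passed edgeR's test, and 0% of 105111 pairs of the library did. At an unadjusted p under 0.05 there were 0 of the 28 in each comparison, and 360, 329 and 868 pairs of the whole library. Among 3636 pairs that hold 1 of the 8 genes there were 11, 11 and 29. The median 95% interval of the 28 pairs reached 1.25 on either side in the day 14 comparison, and in simulated counts the test recovered 0% of 2-fold interactions, so only large departures could have been seen. Over all pairs, the median interval at day 14 reached 1.34 on either side with all 6 libraries and 0.53 without both incomplete ones. In that second fit, 173 (0.165%), 1315 (1.25%) and 233 (0.222%) of all pairs were called, and 10 (0.275%), 53 (1.46%) and 11 (0.303%) of the 3636. The spread in it comes from the day 0 libraries alone. Its lowest adjusted p among the 3636 was that of Mus81-Shprh at day 14 (1.65, 1.36 to 1.94), chosen after its value was seen, and 1 construct, Shprh_sg3 with Mus81_sg1, held 3036 reads in day 14 replicate 2 and 211 in replicate 1.

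The RAD6 pair Ube2a-Ube2b, whose double loss removes both enzymes, had 1041 and 786 reads at day 0, 656 and 624 at day 14, and 902 and 1231 after irradiation, from 8 constructs. Its log2 departure from additivity was -0.13 and -0.24 at day 0, 0.11 and -0.06 at day 14, and 0.24 and 0.43 after irradiation. The later libraries were all above the day 0 libraries, but the interactions of 0.21 (-0.58 to 1.00) at day 14 and 0.52 (-0.27 to 1.32) after irradiation have intervals that hold 0. Without both incomplete libraries they were 0.12 (-0.33 to 0.57) and 0.42 (-0.02 to 0.87), so that no shortfall of double knockouts was detected in either fit.

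Ube2n-Ube2v1 had 490 and 733 reads at day 0, 1065 and 589 at day 14, and 616 and 2430 after irradiation. Its high values were in the 2 incomplete libraries, where its departure from additivity was 1.21 and 1.81, against -0.20 to 0.24 in the other 4. The interaction after irradiation was 1.24 (-0.28 to 2.76), the highest of the 28 pairs, and 0.11 (-0.41 to 0.63) without both incomplete libraries. Ube2n-Ube2v2 was at -0.22 (-1.27 to 0.83) and -0.02 (-1.07 to 1.03), and Ube2v1-Ube2v2 at -0.17 (-0.84 to 0.51) and -0.06 (-0.73 to 0.62).

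With Rad18, the ligase partner of the RAD6 enzymes, Ube2a gave interactions of 0.15 (-0.69 to 0.98) at day 14 and -0.34 (-1.18 to 0.50) after irradiation, and Ube2b gave -0.12 (-1.51 to 1.26) and -0.53 (-1.92 to 0.85). Without both incomplete libraries these became -0.12 and -0.18 for Ube2a, and 0.33 (-0.04 to 0.70) and 0.02 for Ube2b, whose direction thus turned. Rad18-Shprh had 1630 and 1246 reads at day 0, 421 and 658 at day 14, and 945 and 624 after irradiation. Its departure from additivity was 0.32 and 0.04 at day 0 and below 0 in every later library, from -1.05 to -0.05, with interactions of -0.90 (-1.94 to 0.14) and -0.60 (-1.63 to 0.44). They were -0.62 (-1.04 to -0.20; adjusted p = 0.457, edgeR) and -0.24 (-0.65 to 0.17) without both incomplete libraries. Shprh-Ube2n was at -0.23 (-1.30 to 0.84) and 0.24 (-0.83 to 1.31), and at 0.12 and 0.39 without those libraries. With the chromatin ligases Rnf8 and Rnf168, Ube2n was at 0.16 (-1.52 to 1.84) and 0.13 (-1.64 to 1.90) at day 14, and at 0.11 (-1.57 to 1.80) and -0.73 (-2.50 to 1.05) after irradiation. Without both incomplete libraries the day 14 values turned to -0.88 (-1.56 to -0.20; adjusted p = 0.647) for Rnf8-Ube2n and -1.11 (-1.73 to -0.48; adjusted p = 0.176) for Rnf168-Ube2n, and the irradiated ones were -0.45 and -0.31. Over the 8 genes, pairs with Rnf8 lay between -0.98 and 0.50 at day 14, those with Rnf168 between -0.66 and 0.83, and those with Ube2t, the E2 of the Fanconi anemia pathway, between -0.78 and 0.84. None of these pairs passed the test on all 6 libraries. Without both incomplete libraries, Rnf8-Ube2b was called after irradiation (-0.94, -1.45 to -0.43; edgeR adjusted p = 0.0321) and no other pair named here was, beside Mus81-Shprh.

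Constructs with both guides against the same gene numbered 3 or 4 per gene and gave few reads. For Ube2n they had 237 and 161 reads at day 0, 1 and 80 at day 14, and 119 and 14 after irradiation, and for Ube2w 133 and 162, 0 and 69, and 180 and 51. For both genes the lowest value was in day 14 replicate 1, an incomplete library. Ube2v1 went the other way, with 266 and 400 reads at day 0, 841 and 382 at day 14, and 316 and 1658 after irradiation, where the high values were those of the incomplete libraries. At this depth no direction can be read from them.

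Of 29 other genes of ubiquitin signalling at damaged or stalled DNA that were listed, 21 are in the library, and none passed edgeR's test. Of the 21, 11 were lower at day 14 and 12 after irradiation against day 0, and 10 in irradiated against day 14 cells, with medians of -0.00, -0.02 and 0.00. The unadjusted p was under 0.05 for 3, 2 and 3 of them, and for 19 (3.65%), 18 (3.46%) and 12 (2.31%) of the 520 genes and non-targeting guides. At day 14 against day 0 these were Rnf111, a ubiquitin ligase (-0.28, edgeR unadjusted p = 0.000754, adjusted p = 0.392), Usp1, the enzyme that removes ubiquitin from PCNA (-0.16), and Primpol, the repriming polymerase (-0.15). After irradiation against day 0 they were Rfwd3, a ubiquitin ligase (-0.16), and Primpol (-0.12), and in irradiated against day 14 cells Rnf111 (0.28), Rfwd3 (-0.22) and Usp1 (0.17). Rad18 was at -0.03 and -0.08 against day 0. Pcna, the clamp gene, was at 0.24 and 0.22 against day 0, and Vcp at -0.07 and -0.02. At day 14 against day 0, the -0.28 of Rnf111 was the lowest value of all 459 targeted genes. Whether loss of a gene needed for growth lowers these counts was not tested, so small differences do not show that a loss was neutral.

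Over the 6 libraries, the level of Ube2b on the log2 scale was most like that of Mgmt (Pearson's r = 0.986), Dntt (0.978) and Ruvbl1 (0.974). Ube2n was most like Abraxas1 (0.992), Ube2v1 like Bivm (0.993) and Ube2v2 like Npas2 (0.992), while Shprh was most like Trim28 (0.958). Ube2a was most like Prmt6 (0.985), Ube2d3 like Actl6a (0.978) and Ube2w like Gins2 (0.936). These are descriptions over 6 libraries in 3 groups, chosen as the highest of all genes in the library, and they share depth and completeness. Ube2v1 and Ube2v2 had log2 ranges of 0.57 and 0.47, with the lowest level in day 0 replicate 1. The gap of that library therefore enters their likeness to other genes.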

How the data were processed

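The authors deposited raw read counts for each pair of guides, per the file headers and the values, which are whole numbers. HISAT2 2.1.0 and hg38 appear in the submitters' processing notes, and the way reads were assigned to guides was not given in the sources used here. Combined tables held 2 columns that match no sample, and these were not used. A library's own table and the combined table differed in 0 pairs.

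Counts were summed per guide over its partners, per gene, per gene with non-targeting partners, and per gene pair over both orders. The mean count had to reach 2000 for guides and genes and 20 for single knockouts, and pairs had no minimum. Fits used edgeR 4.0.16 (quasi-likelihood, R 4.3.3) on all 6 libraries, TMM scaling within each position for guides, non-targeting constructs as scale for single knockouts, and additive gene effects (prior count 2) as offset for pairs. P-values are two-sided and Benjamini-Hochberg adjusted over all features tested, with a threshold of 0.05. DESeq2 1.42.0 was an alternative. The biological coefficient of variation was 0.10 for guides, 0.07 for genes, 0.15 for single knockouts and 0.57 for pairs. Tests were checked on data simulated at a common spread for each test. The gene test found 100% of genes changed 1.5-fold and falsely called 5 of 320; the guide test falsely called 7 of 1649.

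Members and lists were chosen with earlier results of these data known. By the rule for names, every gene of the group is named, guides are named where they hold the lowest or highest value or differ in direction from their gene, and pairs are named from a fixed list. Further guides and the Rnf8, Rnf168 and Ube2t remarks follow the same list; Ube2v2_sg2, the same-gene constructs and the single genes of the ubiquitin signalling list were added after their values were seen. Hltf was looked for but is not among the targeted genes of the library under that symbol.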

Additional observations from a re-analysis of the deposited data

How the results depend on the processing

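Values under alternatives were counted for the group's genes, their single knockouts and the guides with a lowest or highest value in a comparison. Those guides are Ube2b_sg1, Ube2v2_sg4, Ube2w_sg4 and Ube2d3_sg4, and other guides named above were not counted. Of 852 such values, 840 stayed on their side of the threshold and 12 passed it. In 64 of the 852 the sign differed from the reported one, for 30 of the 60 reported values so counted. All 30 had a reported interval that holds 0 and a size of at most 0.29. DESeq2 called 18, 27 and 20 guides (day 14 and irradiated against day 0, irradiated against day 14), of which 1 belonged to the group at day 14, and 1, 2 and 1 genes, in each case against 0. Scaling by non-targeting guides called 2 guides in each comparison with irradiated cells, size factors by RLE and no filter on low counts each 1 in irradiated against day 14 cells, and position 1 guides alone 2, 2 and 10 genes. Fitting each position on its own, chosen after seeing the data, called 2, 1 and 10 guides. The cause was not tested.

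With the replicate block, 1 guide and 1 gene pair were called in each comparison with irradiated cells, none of them in the group, and no other call changed. Replicate numbers are shared by 2 libraries per group, which does not show that they pair the samples; deviations of same-numbered libraries correlated at -0.05, 0.11 and -0.58. A crossed pairing of the irradiated libraries, chosen after seeing the data, called 0 guides in each comparison.

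Leaving out 1 library at a time gave 0 to 313, 0 to 311 and 0 to 11 guides, of which 0 to 6 and 0 to 7 belonged to the group in the comparisons with day 0. Genes called ran from 0 to 192, 0 to 180 and 0 to 3, with 0 to 4 and 0 to 2 from the group. Single knockouts called ran from 0 to 21 at day 14, with 0 to 1 from the group, and gene pairs from 0 to 1 in each comparison with irradiated cells. The highest counts of guides and genes against day 0 (313, 311, 192 and 180) came without day 0 replicate 2, and the 21 came without day 14 replicate 2; a lone library is then taken to vary like the other groups.

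Without both incomplete libraries, 1 and 3 single knockouts were called against day 0, and 173, 1315 and 233 gene pairs, with the spread taken from the day 0 libraries alone. No filter on low counts for genes and single knockouts added nothing. The median 95% half-width on the log2 scale was 1.34 for pairs, against 0.15 for genes and 0.40 for single knockouts, and 0.53 for pairs at day 14 without both incomplete libraries.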
